A study of Oikopleura dioica with 14 samples.

Results

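At 6 hours post fertilization (hpf), 3 RNA pools of whole Oikopleura dioica animals homozygous for a mutation of Pax37b (Pax37b-/-) were set against 2 pools of wild-type animals (Pax37b+/+). These 5 libraries, which carry that stage and these genotypes in their titles, belong to a series of 14, which also holds 4 libraries of 4 hpf and 5 of 8 hpf. All animals, wild type included, were offspring of heterozygous parents (Pax37b+/-) from single crosses. Each animal was lysed on its own, part of the lysate was genotyped, and RNA was then extracted from animals pooled by genotype and made into polyadenylated-RNA libraries with a kit for single cells or low input. The number of animals per pool, the kind of mutation and the cross behind each pool are not stated in the labels. The labels call the pools biological replicates, but p-values measure only the spread between these pools. The comparison covers all 17212 gene identifiers of the table, of which 6685 passed the filter on low counts and were tested.

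The larvacean Oikopleura dioica, a tunicate of the plankton, feeds through a gelatinous house that its trunk epithelium secretes. The Fol territory is the part of that epithelium that makes the food-concentrating filter. Pax37b is one of the Pax3/7 genes, which encode paired-box transcription factors and in vertebrates and ascidians act at the border of the neural plate. The table gives identifiers without names, and 0 of the 17212 matched the 17178 genes of the RefSeq gene table. Pax37b itself, house-protein genes and cell type markers were therefore not analysed here, the genotype labels could not be checked on the mutated gene, and no sequences are shown.

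The libraries were similar in depth, with 14656991, 15465546 and 13038407 counts in the mutants against 15236991 and 14043388 counts in wild type. They differed far more in how many genes those counts covered. Mutant replicates 1, 2 and 3 had 2598, 4645 and 3760 genes at 100 counts or more, against 2168 and 3674 genes in wild-type replicates 1 and 2. Such genes, called on from here, held 99.2% to 99.8% of the counts of every library. Most other genes had almost none: 7438, 6695 and 9121 genes lay at 1 to 9 counts in the mutants, against 9451 and 8766 in wild type. Few lay between, with 527, 986 and 1472 genes at 10 to 99 counts in the mutants.

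Wild-type replicate 1 stood apart from the other libraries. It had 4089 genes at 10 to 99 counts against 1034 in wild-type replicate 2, and only 1504 genes without a count against 3738. The median count of its genes below 100 was 5, where the other 4 libraries had 1 or 2. It also reached the middle of its counts with the fewest genes, 280, against 545 in wild-type replicate 2 and 391, 624 and 479 in the mutants. Mutant replicate 1 had the most genes without a count, 6649, and the fewest on genes among the mutants. The numbers of on genes overlapped between the genotypes, with wild-type replicate 2 above mutant replicate 1 and below mutant replicates 2 and 3.

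**Figure D1:**
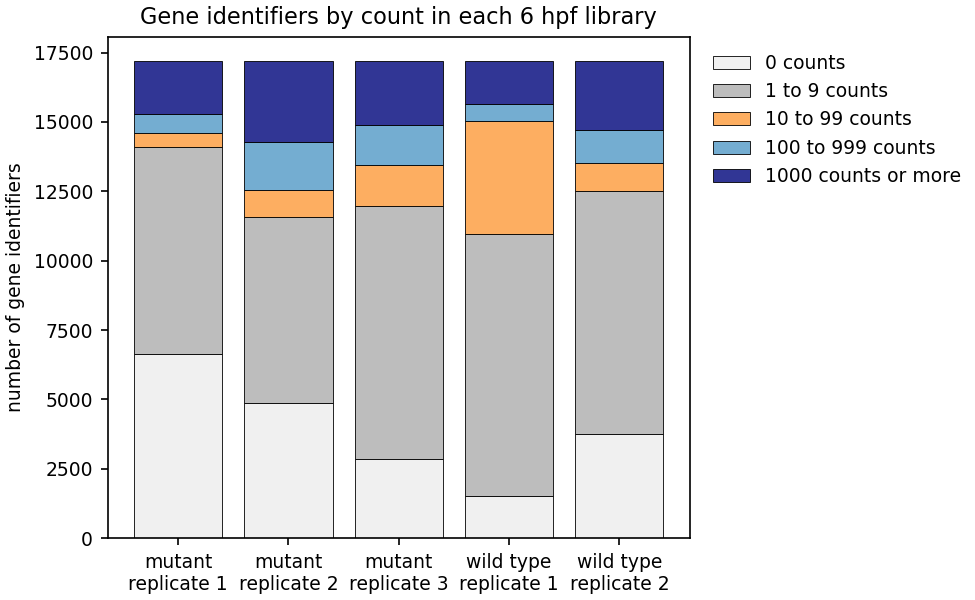
Number of gene identifiers (vertical axis) in each count class, for the 3 mutant and 2 wild-type libraries of 6 hpf. Each bar adds up to 17212 identifiers, most of them at 0 or at 1 to 9 counts, and wild-type replicate 1 has the widest band at 10 to 99 counts (4089 genes).

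Pools of the same genotype shared only part of their on genes. Of the 8213 genes on in at least 1 of the 5 libraries, 3673 (44.7%) were on in a single library and 471 (5.73%) in all 5. In the mutants 6932 genes were on in at least 1 pool and 1031 of these, 14.9%, in all 3. In wild type 4685 genes were on in at least 1 pool and 1157 of these, 24.7%, in both. Mutant replicates 2 and 3 were the most alike, with 35.0% of the genes on in at least 1 of them on in both, whereas mutant replicate 1 shared 28.1% with replicate 2 and 26.6% with replicate 3. The 2 wild-type pools shared 24.7%. A mutant pool and a wild-type pool shared 23.3% to 32.4%, and mutant replicate 2 had more in common with wild-type replicate 2 (32.4%) than with mutant replicate 1. The mean over the 4 pairs within a genotype was 28.6%, against 27.4% over the 6 pairs between genotypes. In pooled whole animals, fewer cells of a type and less RNA per cell cannot be told apart.

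The genes of highest mean level varied least among pools as a group, but not one by one. The gene with the highest mean had 1269, 8561 and 4859 CPM (counts scaled to the same total in every library) in the mutants, against 3836 and 2579 CPM in wild type. Its mutant pools lay on both sides of wild type. The gene with the third highest mean level had 4025, 3920 and 4174 CPM in the mutants, against 2169 and 3925 CPM in wild type. Wild-type replicate 1 was low and the other 4 libraries were close together. The second had 2510, 3959 and 3180 CPM in the mutants and 6665 and 3842 CPM in wild type. Wild-type replicate 1 was again the library farthest out, here on the high side. The fifth had 2197, 2466 and 2266 CPM in the mutants and 6468 and 2591 CPM in wild type. Both wild-type pools lay above every mutant pool, but wild-type replicate 2 by little, and the log2 fold change (mutant over wild type) of -1.29 (SE 1.28) did not pass the test (edgeR adjusted p = 0.703).

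Even a gene of high mean could be almost missing from a pool. The gene with the fourth highest mean had 1.84, 669 and 4933 CPM in the mutants, against 7733 and 3159 CPM in wild type. Its 27 counts in mutant replicate 1 stood against 64313 in mutant replicate 3, a gap within the genotype larger than that between the genotypes. At 4 hpf the same gene had 9337 and 3400 CPM in mutants and 5696 and 7986 CPM in wild type, with overlap. Among the 78 genes with a mean of at least 1000 CPM, 4 (5.13%) were under 10 counts in at least 1 library. Among 766 genes at 300 to 1000 CPM this share was 46.1%, among 1829 genes at 100 to 300 CPM 81.6%, and among 4070 genes at 10 to 100 CPM 95.8%. The median size of the log2 fold change followed the same order, at 0.74, 1.42, 2.72 and 4.42 for the tested genes of these 4 groups. The order did not go on below 10 CPM, where 97.6% of 1870 genes were under 10 counts in at least 1 library and the median size was 2.43.

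**Figure D2:**
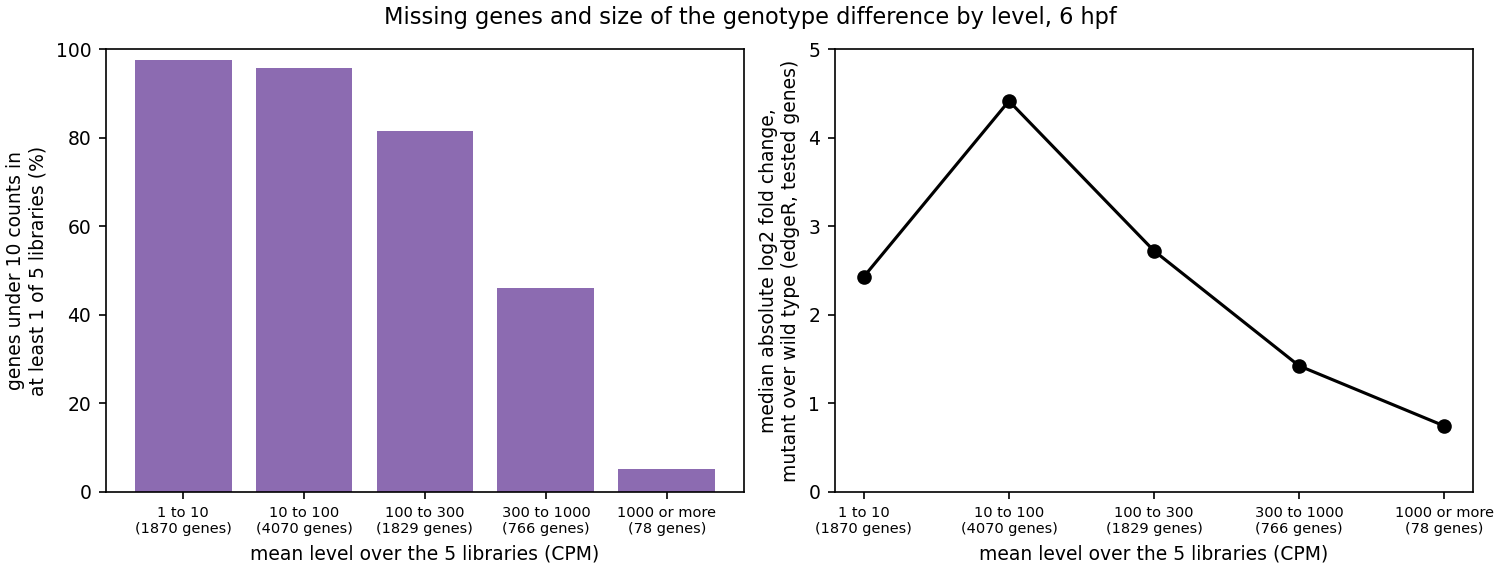
Left, percent of genes under 10 counts in at least 1 of the 5 libraries. Right, median absolute log2 fold change of tested genes, mutant over wild type. Both are drawn by mean level in CPM, and both are lowest for the 78 genes at 1000 CPM or more (5.13% and 0.74).

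The 471 genes on in every 6 hpf library are the ones for which the 2 genotypes can be compared without a missing pool. Choosing them this way leaves out any gene that was lost in 1 genotype. They held 25.8% to 33.3% of each library's counts. Their log2 fold changes had a median of -0.21 and a middle range of -1.01 to 0.47, and 280 of them (59.4%) lay within 2-fold. Over all tested genes the median was 0.40 and the median size 2.69, against a median size of 0.75 for these 471. In 33 of them (7.01%) all mutant pools lay above both wild-type pools, and in 45 (9.55%) below. Over all 6685 tested genes 509 (7.61%) lay higher and 679 (10.2%) lower in this way, so the abundant genes were near the background. In edgeR's test 0 of the 471 passed and 1 had an unadjusted p under 0.05.

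No gene passed the test of mutant against wild type at 6 hpf. Of the 6685 tested, 0 (0.0%) had a Benjamini-Hochberg adjusted p under 0.05 in edgeR's quasi-likelihood test, and the smallest was 0.488. An unadjusted p under 0.05 was found for 341 genes (5.1%), 116 of them higher (1.74%) and 225 lower (3.37%) in mutants. limma-voom called 153 of the same genes and DESeq2 called 2168 of the 6789 to which it gave an adjusted p. DESeq2 was run without the filter on low counts. Of its 1040 higher calls 996, and of its 1128 lower calls 436, were among the 6685 genes tested in edgeR. Leaving out any 1 of the 5 libraries gave 0 calls in edgeR. The spread behind this was wide, with a biological coefficient of variation of 1.83, against 1.31 at 4 hpf and 1.45 at 8 hpf.

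The genes with the smallest p, 2 in each direction, show what such a difference consisted of. They were taken among genes without overlap that were on in every pool of the higher genotype. GSOIDG00016041001 had 2766, 405 and 344 CPM in the mutants, against 1.05 and 7.33 CPM in wild type. All mutant pools were higher, and mutant replicate 1 was far above the other two. The mutants averaged 1172 ± 1381 CPM (SD, n = 3) and the wild types 4.19 ± 4.44 CPM (SD, n = 2). The log2 fold change was 8.56 with an SE of 3.15 and did not pass (edgeR adjusted p = 0.661). It was 6.19 without mutant replicate 1 and 10.45 without wild-type replicate 2. At 4 hpf the gene had 86.0 and 109 CPM in mutants and 88.1 and 139 CPM in wild type, which overlapped. At 8 hpf it had 106, 2.32 and 2.74 CPM in mutants and 521 and 264 CPM in wild type, so that every mutant pool was then lower.

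GSOIDG00014713001 had 1685, 23.3 and 388 CPM in the mutants, against 0.919 and 0.214 CPM in wild type. It was on in all mutant pools, but these ranged over more than 1 order of magnitude. Its log2 fold change was 10.30 (SE 4.00, edgeR adjusted p = 0.661), and was 7.84 without mutant replicate 1 and 12.29 without wild-type replicate 1. The mutant pools of the other stages did not repeat it, with 424 and 2.02 CPM at 4 hpf against 189 and 334 CPM in wild type. At 8 hpf a single mutant pool, at 158 CPM, lay above both wild-type pools, at 6.76 and 0.201 CPM.

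In the other direction GSOIDG00006462001 had 0.136, 0.0647 and 0.614 CPM in the mutants, which is 2, 1 and 8 counts, against 2209 and 170 CPM in wild type. The mutant pools were all close to empty. Its log2 fold change was -12.57 (SE 3.44, edgeR adjusted p = 0.488), and was -9.15 without wild-type replicate 1. In both genotypes it was low at the other stages, with 17.0 and 7.40 CPM in mutants and 12.5 and 0.319 CPM in wild type at 4 hpf. At 8 hpf no library exceeded 16 counts.

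GSOIDG00000154001 had 1, 27 and 6 counts in the mutants, against 39190 and 200 counts in wild type. In CPM the wild-type pools were at 2572 and 14.2, so replicate 1 set the level. The log2 fold change was -11.51 (SE 3.20, edgeR adjusted p = 0.488) and moved to -4.50 without wild-type replicate 1 (edgeR adjusted p = 0.753). At 4 hpf the gene had at most 2 counts in any library. At 8 hpf it was on in 1 of the 2 wild-type pools, at 197 CPM, and under 1 CPM in the other wild-type pool and all mutants.

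**Figure D3:**
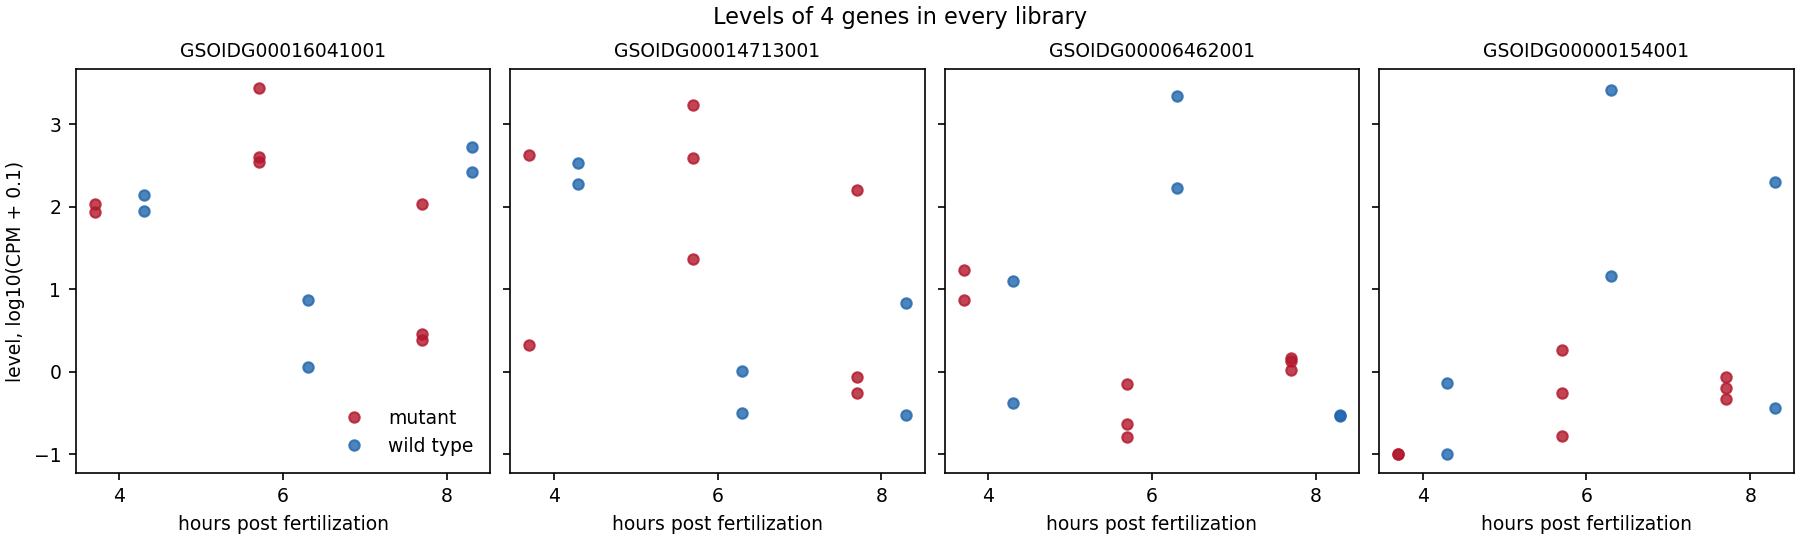
Level of the 4 genes in every library, as log10 of CPM plus 0.1 (vertical axis), by stage, with mutant pools (red) drawn left of wild-type pools (blue). The genotypes are apart at 6 hpf for each gene, by which the genes were chosen, and overlap at 4 hpf.

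A view that needs no model of the spread is whether a gene was on in every pool of 1 genotype and off, under 10 counts, in every pool of the other. On in all 3 mutants and off in both wild types were 65 genes, 0.378% of the 17212 identifiers. On in both wild types and off in all mutants were 73 genes, 0.424%. In the 65 genes the median count was 1925, 1549 and 1078 in the mutants against 5 and 2 in wild type. They made up 1.38%, 1.00% and 1.06% of the mutants' counts. In the 73 genes the median count was 1, 1 and 3 in the mutants against 2581 and 2072 in wild type, where they made up 2.56% and 1.56% of the counts.

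Even these genes varied among the pools in which they were on. In the 65 genes the highest mutant count was a median of 5.48 times the lowest, and 21 genes differed more than 10-fold among mutants. In the 73 genes the 2 wild-type counts differed by a median of 3.18 times, and 24 genes agreed within 2-fold. None of the genes of either class passed edgeR's test, and 12 of the 65 and 61 of the 73 had an unadjusted p under 0.05, where 1.74% of all tested genes had one and lay higher and 3.37% had one and lay lower. limma-voom called 35 of the 65 and 56 of the 73, and DESeq2 called 64 and 73. These tests use the values that chose the genes. Leaving out a library can only add genes to these classes, because the rule asks for every pool. Without wild-type replicate 1, 193 genes were on in mutants and 729 on in wild type. They were 176 and 287 without wild-type replicate 2. Without mutant replicate 1 they were 318 and 104.

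Some genes had no count at all in the lower genotype. Of the 65, 4 had 0 counts in both wild-type pools. The steadiest had 974, 1179 and 1332 counts in the mutants, at least 797-fold higher given a floor of 3 counts over the wild-type group. At 4 hpf, in shallower libraries, that gene had 150 and 139 counts in the mutant pools, against 2 and 224 counts in wild type, which overlapped. At 8 hpf it had at most 4 counts in any library. The strongest of the 4 had 2574, 1092 and 319 counts in the mutants at 6 hpf, at least 881-fold higher. At 4 hpf both mutant pools had 0 counts and the wild-type pools 110 and 5, the opposite order. At 8 hpf the mutant pools had 1, 742 and 2177 counts, against 674 and 0 counts in wild type, which overlapped. These bounds cover counting error only, because the reads carry no molecular identifiers and were amplified by PCR.

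Of the 73, 5 had 0 counts in all 3 mutant pools. Of these, 2 belong to a run of 43 identifiers with close numbers that was picked out from earlier results of these data as low in mutants. Outside that run, the strongest had 0 counts in the mutants against 1116 and 1477 in wild type, at least 1283-fold lower. At 4 hpf the mutant pools had 325 and 9 counts, against 67 and 93 counts in wild type, with overlap. At 8 hpf it had at most 8 counts in any library. The run as a whole summed to 720, 140 and 2.45 CPM in the 6 hpf mutants against 2999 and 2676 CPM in wild type, and 3 of the 73 genes (4.11%) lie in it.

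The libraries of 4 and 8 hpf were not used to choose the on/off genes and give a separate look at them. Of the 65 genes on in mutants at 6 hpf, at 4 hpf 11 (16.9%) lay higher in both mutant pools than in both wild-type pools and 14 (21.5%) lay lower. Over all genes tested at 6 hpf these shares were 12.4% and 18.2%. Of the 73 genes on in wild type, 6 (8.22%) lay higher and 9 (12.3%) lower in mutants at 4 hpf. In both groups, as over all tested genes, more lay lower than higher at that stage. Many were expressed there, with 49 of the 65 (75.4%) and 51 of the 73 (69.9%) on in at least 1 library of 4 hpf. This was near the share of all tested genes, 67.4%. In the mutant pools of 4 hpf 31 and 32 of the 65 were on, against 31 and 35 in the wild-type pools. Of all 6685 tested genes, 2411 and 3128 were on in the mutant pools, against 2852 and 3134 in the wild-type pools.

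At 8 hpf more genes of either group lay higher than lower, as did all tested genes. Median levels were close to empty there, so such an order can rest on a few counts. Of the 65 genes, 4 to 20 were on in the mutant pools of 8 hpf, against 14 and 22 in the wild-type pools. Of the 73 genes, 2 to 13 were on in the mutant pools, against 20 and 25. Of all 6685 tested genes, 619 to 1736 were on in the mutant pools, against 1870 and 2952 in the wild-type pools. For the 65 genes the median was 0.467, 0.869 and 0.547 CPM in mutants, against 0.383 and 0.268 CPM in wild type. For the 73 it was 0.623, 1.06 and 1.0 CPM, against 0.51 and 0.268 CPM. Over all tested genes it was 0.934, 1.64 and 1.28 CPM, against 1.53 and 0.469 CPM. Of the 65 genes 19 (29.2%) lay higher and 7 (10.8%) lower in mutants, against 30.2% and 10.5% of all tested genes. Of the 73 genes 21 (28.8%) lay higher and 11 (15.1%) lower. Without wild-type replicate 1 of 6 hpf in the choice, 729 genes were on in wild type. Of these, 289 (39.6%) lay higher and 51 (7.0%) lower at 8 hpf. None of the 65 met the rule for on in mutants and off in wild type again at 4 or at 8 hpf, but only 0.389% and 0.105% of all tested genes met it at these stages. Of the 73 genes, 2 met the reverse rule at 4 hpf and another 2 at 8 hpf, and 0 met it at both, where 1.38% and 1.14% of all tested genes met it. The 2 at either stage included a member of the run of identifiers picked out from earlier results as low in mutants. On their 6 hpf side at both other stages were 2 of the 65 genes (3.08%), where 3.66% of all tested genes lay higher in mutants at both. Of the 73 genes 4 (5.48%) were, where 2.32% of all tested genes lay lower at both, and 3 of these 4 belong to that run of identifiers. The fourth, chosen here after its values were seen, had 1, 0 and 6 counts in the 6 hpf mutants, against 162 and 1585 counts in wild type. At 8 hpf the mutant pools had 13, 11 and 13 counts, against 3591 and 12217 counts in wild type. At 4 hpf the mutant pools had 1 count each, against 1 and 121 counts in wild type, so the separation there rested on 1 library.

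**Figure D4:**
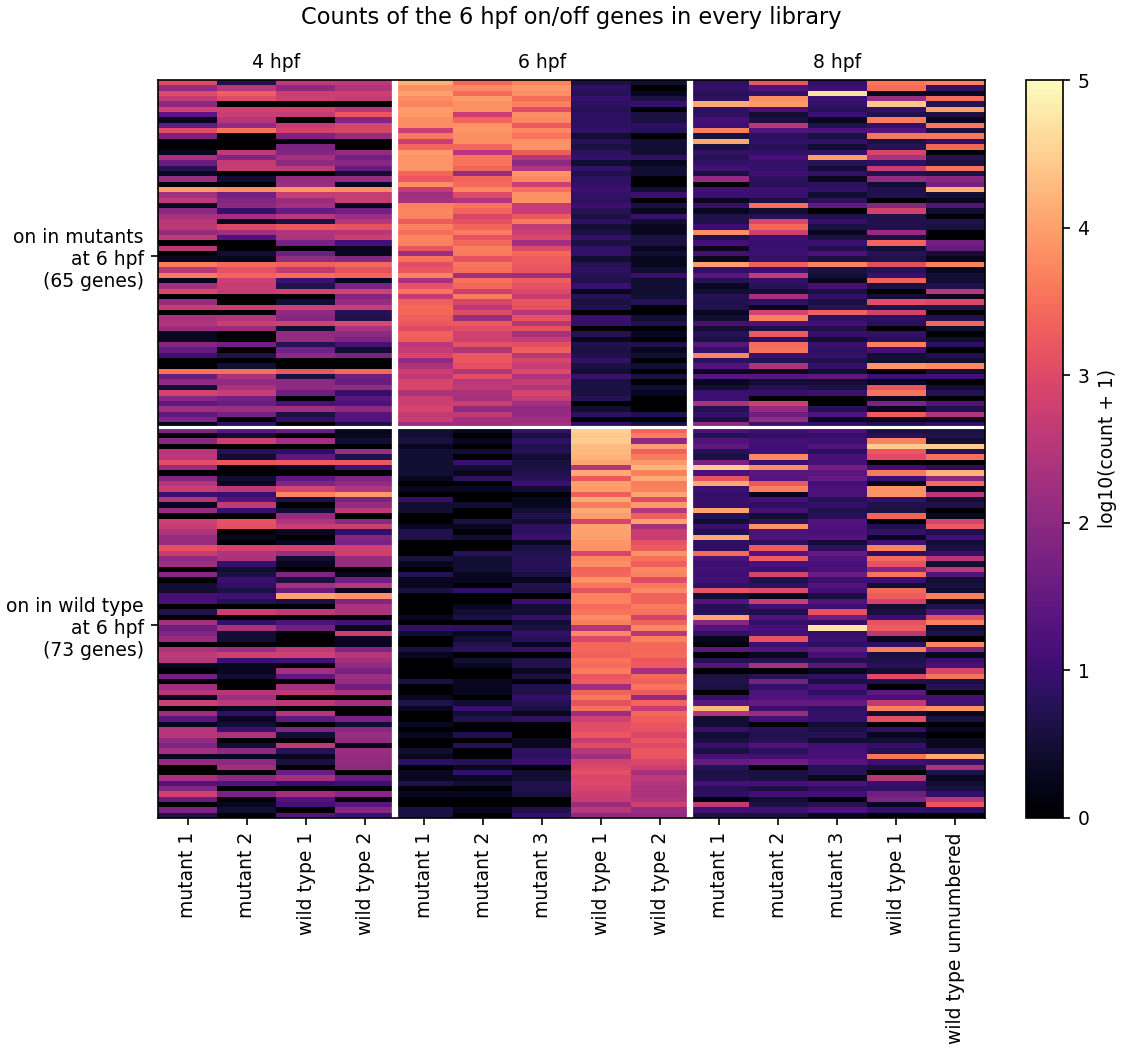
Counts, as log10 of count plus 1 (colour), of the 65 genes on in mutants (upper block) and the 73 genes on in wild type (lower block) at 6 hpf, in all 14 libraries. Columns run by stage, with mutants left of wild type. Counts are not scaled to depth, and the 4 hpf libraries were shallower. The blocks divide by genotype at 6 hpf, by which the genes were chosen, while at 4 hpf 0 of the 65 and 2 of the 73 genes were on and off in the same way.

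**Figure D5:**
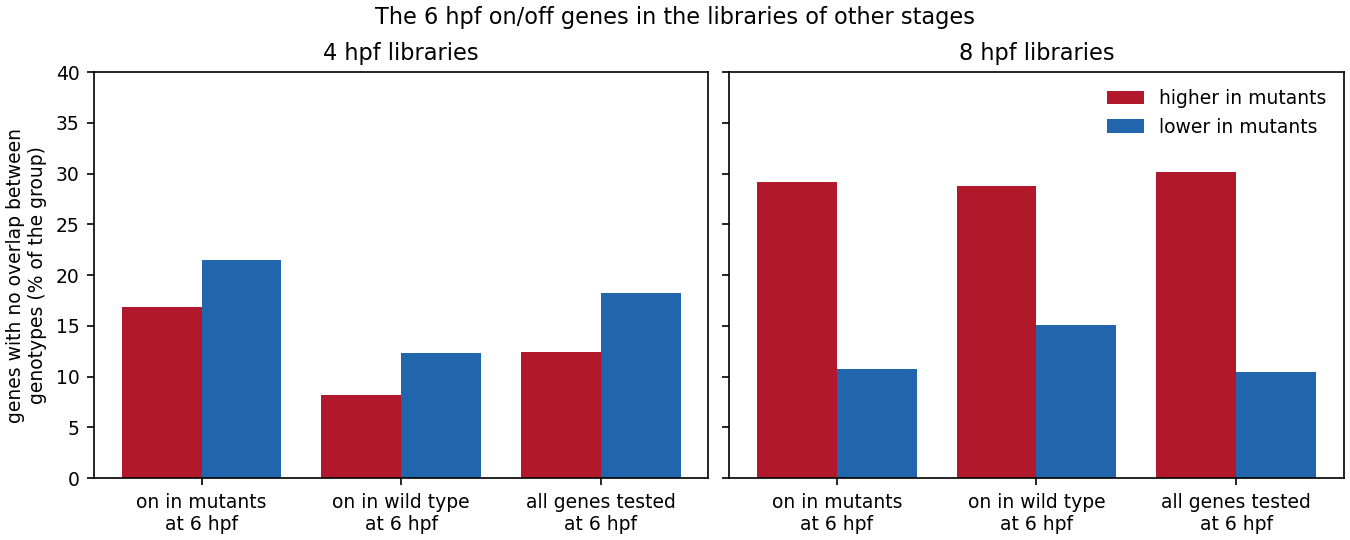
Percent of genes whose mutant pools all lay above (red) or all below (blue) the wild-type pools at 4 hpf (left) and 8 hpf (right), for the 65 genes on in mutants, the 73 on in wild type and all 6685 genes tested at 6 hpf. At 4 hpf the higher and lower shares are 16.9% and 21.5%, 8.22% and 12.3%, and 12.4% and 18.2% in these groups.

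limma-voom called 60 genes higher (0.898%) and 93 lower (1.39%) in mutants. All 60 were on in 2 or 3 mutant pools and in no wild-type pool, and all 93 were on in both wild-type pools. Of the 93, 22 were also on in 1 mutant pool. No gene called by limma-voom was on in all 5 libraries. The calls moved with single libraries. Without wild-type replicate 1 there were 63 higher and 500 lower, of which 34 and 54 were among the 60 and 93. Without wild-type replicate 2 there were 27 higher and 289 lower, of which 12 and 72 were shared.

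DESeq2 called 1040 genes higher (15.3%) and 1128 lower (16.6%) in mutants. Of the 1128 lower, 961 (85.2%) were on in a single wild-type pool, 729 of them in replicate 2 alone and 232 in replicate 1 alone. Of the 1040 higher, 721 (69.3%) were on in 2 of the 3 mutant pools, most often in replicates 2 and 3, which accounted for 398. Genotypes did not overlap for 354 of the 1040 higher genes and 767 of the 1128 lower ones, where 7.07% of all genes DESeq2 tested lay higher and 18.5% lower without overlap. Without wild-type replicate 2 DESeq2 called 1582 genes higher and 292 lower, of which 607 and 289 were among the 1040 and the 1128. Without wild-type replicate 1 it called 1921 higher and 769 lower, and without mutant replicate 1 it called 2404 higher and 1315 lower. limma-voom and DESeq2 shared 137 genes, 89.5% of the limma-voom calls and 6.32% of the DESeq2 calls.

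The genes called by DESeq2 at 6 hpf were also looked up at the other stages. Of the 1040 higher genes, 140 (13.5%) were higher and 179 (17.2%) lower in mutants without overlap at 4 hpf, against 11.7% and 16.6% of all. Of the 1128 lower genes, 117 (10.4%) were higher and 157 (13.9%) lower at 4 hpf. At 8 hpf 269 of the 1040 (25.9%) were higher and 118 (11.3%) lower, against 32.1% and 9.44% of all. Of the 1128, 440 (39.0%) were higher and 91 (8.07%) lower at 8 hpf. Only 436 of the 1128 had passed edgeR's filter on low counts at 6 hpf, and an order at 8 hpf can again rest on a few counts. Of the 60 genes limma-voom called higher, 6 (10.0%) lay higher and 13 (21.7%) lower at 4 hpf, near the 12.4% and 18.2% of all it tested. Of the 93 it called lower, 8 (8.60%) lay higher and 17 (18.3%) lower. At 8 hpf 10 of the 60 lay higher and 5 lower (16.7% and 8.33%), and 29 of the 93 lay higher and 15 lower (31.2% and 16.1%), against 30.2% and 10.5% of all it tested.

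Whether the genotype difference itself changed with stage was tested in fits of 2 stages. Between 6 and 4 hpf 0 of 10194 genes (0.0%) passed (edgeR, smallest adjusted p = 0.142), with 1288 (12.6%) at an unadjusted p under 0.05. limma-voom called 0 and DESeq2 752. Between 6 and 8 hpf 24.1% of 11469 genes had an unadjusted p under 0.05 in edgeR. After adjustment 8 (0.0698%) passed, 5 with a difference that was higher at 6 hpf and 3 lower. All 8 were low, none above 111 counts in any of the 10 libraries, and each had 0 counts in 3 to 7 of them. None passed without wild-type replicate 1 or without wild-type replicate 2 of 6 hpf. For the 4 named genes the adjusted p of the difference was 0.333 to 1.00 between 6 and 4 hpf and 0.140 to 0.634 between 6 and 8 hpf.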

How the data were processed

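RNA from pooled whole animals was sequenced. The authors deposited estimated counts per gene, 1 table per stage, neither scaled nor pooled. The tools named are kallisto 0.46.0 and DESeq2, per the submitters' processing notes, which give neither index nor annotation. Of the deposited estimated counts of 6 hpf, 4.87% to 9.71% per library were more than 0.01 away from whole, and counts were rounded. Where near-identical copies share reads, their counts are uncertain. Every pair of 6 hpf libraries differed beyond sampling noise (chi-square per degree of freedom of at least 1881).

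The fit used edgeR 4.0.16 in R 4.3.3 with filterByExpr, TMM factors and the two-sided quasi-likelihood F test, adjusted by Benjamini-Hochberg over all genes tested. Standard errors were taken as the log2 fold change over the root of F. CPM used the total count. The alternatives tried were limma-voom (limma 3.58.1), DESeq2 1.42.0, RLE or upper-quartile factors, other filters, a joint fit of 14 libraries, a block for replicate number, and the omission of each library. edgeR, limma-voom and DESeq2 were also run on simulated counts, and how many genes each called there is not reported here. Python 3.11.15, numpy 2.4.6, pandas 2.3.3 and matplotlib 3.10.9 made tables and plots.

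On meant 100 counts or more and off under 10, at every stage and without scaling to depth. No overlap meant every mutant CPM above, or every one below, all wild-type CPM. A wild-type column of 8 hpf whose number no title has was used as an unnumbered replicate. The comparison, lists and rules were chosen with earlier results of these data known. Named genes were the 2 higher and 2 lower with the smallest edgeR p, without overlap and on in every library of the higher genotype. The functional lists were not run, because 0 identifiers have names.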

Additional observations from a re-analysis of the deposited data

Results flagged for a closer look

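Between 6 and 8 hpf the genotype difference passed edgeR's test for 8 genes, which are given by their counts because the files pair no names with identifiers. The first (adjusted p = 0.00595) had at 6 hpf 0, 28 and 0 counts in mutants, against 0 in both wild types, and at 8 hpf 0 in all mutants, against 49 and 20 in wild type. The others had an edgeR adjusted p of 0.0181, 0.0210, 0.0364, 0.0390, 0.0390, 0.0421 and 0.0421. The seventh had 98, 0 and 1 counts in the 6 hpf mutants, against 0 in both wild types, so its value at that stage rested on 1 pool. The fifth was the evenest at 8 hpf, where the mutants had 17, 14 and 20 counts and the wild types 1 and 0. Its 6 hpf counts were 0, 0 and 1 in mutants, against 10 and 4 in wild type.

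For GSOIDG00016041001 every mutant pool lay above wild type at 6 hpf and below it at 8 hpf, a difference of 12.46 on the log2 scale (SE 4.61) that did not pass the test (edgeR adjusted p = 0.140). For GSOIDG00006462001 every mutant pool lay below wild type at 6 hpf and above it at 8 hpf, a difference of -13.93 (SE 5.32, edgeR adjusted p = 0.140), with no more than 16 counts in any library of 8 hpf.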

How the results depend on the processing

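At 6 hpf edgeR called 0 genes under RLE and upper-quartile factors, without the low-count filter, with a mean of at least 5 CPM, with 100 counts in 2 libraries and in 1 fit of all 14 libraries, and 0 without any single library. Only the tool changed this count, to 153 with limma-voom and 2168 with DESeq2. The genes DESeq2 called were not all among those edgeR tested in its main fit. Leaving out 1 library gave 262 to 563 calls in limma-voom and 1874 to 3719 in DESeq2. Scaling moved the median log2 fold change of all tested genes, from 0.40 with TMM to 0.45 with RLE, -0.08 with upper-quartile factors and 0.52 on total counts. The 4 named genes kept their direction in all 56 alternative values and passed in 6, all of them with DESeq2 or limma-voom. Their log2 fold changes moved when a library was left out, most of all for GSOIDG00000154001, which was -4.50 without wild-type replicate 1.

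With 0 counts as off, 4 genes were on in mutants and 5 on in wild type. With 1000 counts as on they were 17 and 40. With under 100 counts as off, a choice made after the data were seen, 164 were on in mutants and 109 on in wild type. With 10 CPM as on and under 1 CPM as off, 92 were on in mutants and 72 on in wild type, which turned the order of the classes. Leaving out 1 library, which can only add genes, gave 127 to 318 genes on in mutants and 104 to 729 on in wild type.

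Between 6 and 4 hpf DESeq2 called 752 genes, and leaving out 1 library gave 0 to 1 in edgeR. Between 6 and 8 hpf the 8 calls became 24 under RLE factors, 2048 in DESeq2, 4 in limma-voom, 0 with a mean of at least 5 CPM, and 0 to 25 when 1 library was left out. The cause was not tested.

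The titles number the pools alike in both genotypes. Same-numbered pools deviated with correlations of -0.028 and -0.012, so the numbers were not taken as pairs. With a replicate block edgeR called 0 genes at 6 hpf and 0 between 6 and 4 hpf. The block leaves little from which to measure the spread and gives mutant replicate 3 its own term. These 0 calls therefore say little. No replicate block was fitted between 6 and 8 hpf because a wild-type column has no title number. With 2 wild-type pools a lone remaining pool is assumed to vary like the mutants.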

Other observations

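The 471 genes on in every library of 6 hpf leaned to the wild-type side at the other stages. At 4 hpf 53 of them (11.3%) lay higher and 136 (28.9%) lower in both mutant pools than in both wild-type pools, against 12.4% and 18.2% of all genes tested at 6 hpf. At 8 hpf 36 (7.64%) lay higher and 86 (18.3%) lower, against 30.2% and 10.5%. The median over all tested genes was 0.469 to 1.64 CPM in the 8 hpf pools, so their shares can rest on a few counts. Of all tested genes 619 to 1736 were on in the 8 hpf mutant pools, against 1870 and 2952 in wild type. Whether the lean is particular to the 471 was not tested. At 6 hpf itself 7.01% lay higher and 9.55% lower. Among the 65 genes on in mutants 3 pairs had consecutive identifier numbers, and among the 73 genes on in wild type 1 pair did. How often genes picked from all identifiers form such pairs was not counted, so these numbers have no background to be read against. Oikopleura dioica transcribes many neighbouring genes as operons, but whether consecutive identifiers are neighbours on the chromosome was not analysed here.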
